A study of Mus musculus with 12 samples.

Results

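The mTOR inhibitor RAD001 was compared with its vehicle DMSO in mouse acute myeloid leukaemia cells, over every gene whose mean across the 6 libraries of these groups reached 1 FPKM. FPKM are reads per gene scaled by transcript length and library size. Of 23234 genes in the table, 10300 met this rule. Fth1, the ferritin heavy chain gene, was left out because it is listed at 0 in every RAD001 library, which can be a gene skipped in the calculation. The whole study held 12 libraries of RNA from primary leukaemia cells that carry NRASG12V and the Mll-AF9 fusion, on an F1 background of FVB/n and C57/BL/6J. NRASG12V is an activated form of the GTPase NRAS, and Mll-AF9 is a fusion of a chromatin regulator with a transcription elongation factor. All cells, controls included, carried both oncogenes and were kept in RPMI with 10% FBS and 1 ng/ml GM-CSF. The RAD001 group (3 libraries) received 26 µM RAD001 for 24 h and the DMSO group (3 libraries) received the vehicle for 24 h. The other 6 libraries had received 20 µM of the PI3 kinase inhibitor GDC0941 or 20 µM of the MEK inhibitor PD325901. Whether libraries of a group were grown from different cultures or animals is not in the labels, and all p-values therefore measure only the spread between these libraries, which may be technical. Only 1 dose and 1 time of RAD001 were measured.

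mTOR is a kinase that works in a complex with raptor (mTORC1) and in another with rictor (mTORC2). mTORC1 senses amino acids, energy and growth factors, and it drives protein, lipid and nucleotide synthesis while holding back autophagy and lysosome formation. RAD001, or everolimus, is a rapamycin analogue that binds the protein FKBP12 and then blocks mTORC1. In myeloid leukaemia, signals from NRAS reach mTORC1 through both the ERK and the PI3 kinase branches.

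Replicate 1 stood apart from replicates 2 and 3 in both groups. The first principal component of the 6 libraries (68.3% of the variance) separated RAD001 from DMSO, and the next (20.3%) separated replicate 1 of either group from the rest. In RAD001, 369 genes in replicate 1 lay at least 1 log2 unit from the mean of replicates 2 and 3, and in DMSO 184 genes did. Spearman correlations across genes were 0.971 to 0.996 within the groups and 0.932 to 0.949 between them. Absolute depth was unknown because the values are not counts, and relative to DMSO replicate 1 the depths estimated from low values were 0.846 to 1.2. Counts of gene lists are also given without replicate 1 of every group where a count of 5 or more moved by over 1.5 times.

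RAD001 changed about as many genes upwards as downwards. A gene is called changed where limma gave an adjusted p under 0.05. Of the 10300 genes, 1597 were higher (15.5%) and 1659 were lower (16.1%) with RAD001, together 31.6%. Called changes of at least 1 log2 unit were fewer, with 273 genes higher (2.65%) and 395 lower (3.83%), 6.49% together. At 2 log2 units and over, 50 were higher (0.485%) and 51 lower (0.495%). The median change of all genes was 0.00. The groups did not overlap in 2606 genes with RAD001 above (25.3%) and in 2644 genes with RAD001 below (25.7%). The shares of 15.5% and 16.1% belong beside each list count below that comes from the fit with all libraries. Other fits called other numbers of the 10300 genes, beside which their list counts are to be read. Without replicate 1 of every group 2380 were higher and 2515 lower. Leaving out replicate 2 or 3 of either group gave 1100 to 1248 higher and 1160 to 1252 lower. The shares of rises and falls differed with the level of a gene, taken as its mean over the same 6 libraries, RAD001 included. Of the 763 genes at 100 FPKM and over, 33.8% were higher and 7.21% lower, and of the 2745 genes between 1 and 5 FPKM, 7.76% were higher and 20.5% lower. FPKM summed to 539014 to 587581 in the RAD001 libraries and to 487023 to 505374 in the DMSO libraries. The part of these sums in the trend was not tested. In these bulk samples, fewer cells of a type and less RNA per cell cannot be told apart.

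**Figure D1:**
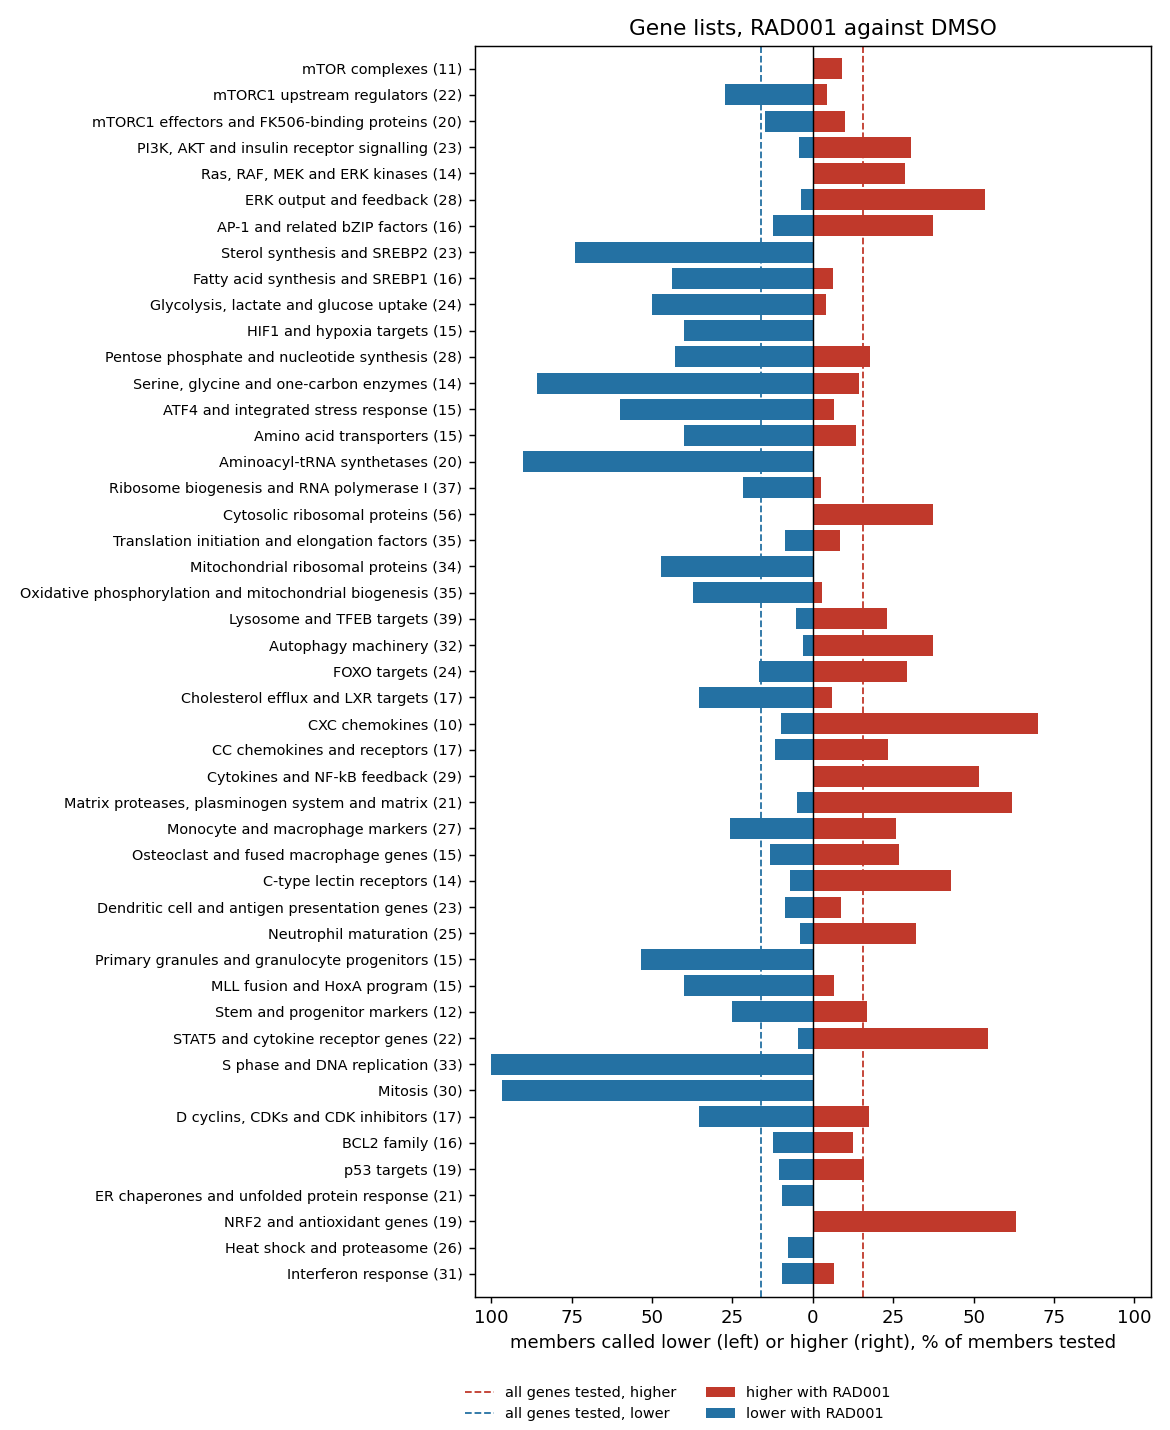
Share of the tested members of each gene list called lower (blue, left) or higher (red, right) with RAD001 than with DMSO, in percent, with the number of members tested in brackets and lists of at least 10 tested members shown. Dashed lines mark the shares over all 10300 genes, 15.5% higher and 16.1% lower. All 33 replication genes and 29 of 30 mitosis genes are on the lower side, and 7 of 10 CXC chemokine genes on the higher side.

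The transcripts of the drug's own target complex hardly moved. Of 11 genes for subunits and regulators of the mTOR complexes, 1 was higher and none was lower (median log2 change 0.02). That gene was Rictor, the defining subunit of mTORC2, which stood at 2.95, 2.71 and 2.81 FPKM in DMSO replicates 1, 2 and 3 and at 4.51, 4.41 and 4.62 FPKM in the RAD001 replicates (log2 change 0.53 ± 0.11 SE, adjusted p = 0.00535). Values per library are given below in this order of replicates. The kinase gene Mtor itself was at 5.11 ± 0.15 FPKM with DMSO and 5.69 ± 0.197 FPKM with RAD001 (mean ± SD, n = 3, adjusted p = 0.483 by limma). Rptor, which encodes raptor, was at 7.86 ± 0.172 and 8.22 ± 1.68 FPKM (adjusted p = 0.888 by limma). Fkbp1a, which encodes the drug's binding protein FKBP12, rose from 99.9, 117 and 115 FPKM to 167, 146 and 138 FPKM, without overlap (log2 change 0.44 ± 0.10, adjusted p = 0.00777). Its log2 change was 0.29 without replicate 1 of every group and 0.28 with quantile normalization, which gives every library the same distribution of values. The related genes Fkbp4 (log2 change -0.98) and Fkbp3 (-0.65) fell, the latter not passing without RAD001 replicate 3 (-0.53). Of the direct substrates, Rps6kb1, the S6 kinase gene, was at 7.2 ± 0.156 and 7.12 ± 0.289 FPKM, and Eif4ebp1, the gene for a repressor of cap-dependent translation, at 137 ± 16.6 and 132 ± 8.01 FPKM.

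Among genes that act upstream of mTORC1, the stress-induced inhibitors were lower. Of 22 tested, 6 fell and 1 rose (median -0.15), beside 16.1% lower over all genes, and no fit that left out 1 library called a rise. The leucine and stress sensors Sesn1, Sesn2 and Sesn3 fell together, by 1.32 ± 0.20, 0.78 ± 0.09 and 1.00 ± 0.17 on the log2 scale. Sesn1 went from 19.1, 24.1 and 23.8 FPKM to 9.96, 7.79 and 7.39 FPKM, with every RAD001 library below every DMSO library. Ddit4, which encodes the mTORC1 inhibitor REDD1, was at 15.3, 8.84 and 13.96 FPKM with DMSO and 6.58, 3.06 and 2.75 FPKM with RAD001 (log2 change -1.46 ± 0.29, adjusted p = 0.00307). The Rag GTPase gene Rragc, whose product brings mTORC1 to the lysosome, fell by 0.46 ± 0.08.

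Single genes of the PI3 kinase and Ras branches rose, and the counts over their lists depended on the libraries used. Of 14 genes for Ras, RAF, MEK and ERK kinases and their regulators 4 rose and none fell (median 0.16), beside 15.5% higher over all genes, and 2 rose without DMSO replicate 2. In the list of PI3 kinase, AKT and insulin receptor signalling 7 of 23 genes rose and 1 fell (median 0.23). Leaving out RAD001 replicate 2, DMSO replicate 2 or DMSO replicate 3 lowered the count of rises to 3 of 23. Those fits called 1110, 1100 and 1136 of all 10300 genes higher. Without replicate 1 of every group the count was 11 of 23, in a fit that called 2380 of the 10300 genes higher. Igf1r, the IGF1 receptor gene, went from 3.48, 2.14 and 2.42 FPKM to 8.33, 6.85 and 6.37 FPKM (log2 change 1.16 ± 0.17, adjusted p = 0.000532). Akt1 rose by 0.32 ± 0.07 (0.19 and not called with quantile normalization), while Pik3r1, the gene for the regulatory PI3 kinase subunit, fell by 0.47 ± 0.10. Nras, whose product with the G12V change is the oncogene of these cells, was at 28.4, 29.8 and 31.9 FPKM and at 38.3, 36.6 and 34.8 FPKM (log2 change 0.28 ± 0.07, adjusted p = 0.0158). The call for Nras was lost when DMSO replicate 1 (log2 change 0.24), DMSO replicate 2 (0.27) or RAD001 replicate 2 (0.27) was left out. The table does not separate the mutant transcript from that of the endogenous gene.

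Output genes of the ERK pathway were higher with RAD001. Of 28 genes tested 15 rose and 1 fell (median 0.51), beside 15.5% higher over all genes. Plaur, the gene for the urokinase receptor, went from 188, 227 and 254 FPKM to 930, 1047 and 870 FPKM (log2 change 2.09 ± 0.18, adjusted p = 2.87e-05). The ERK phosphatase gene Dusp6 went from 118, 66.7 and 78.3 FPKM to 285, 281 and 259 FPKM (log2 change 1.68 ± 0.17, adjusted p = 7.49e-05). Phlda1 rose by 2.55 ± 0.26, Dusp5 by 2.05 ± 0.27, and the immediate early genes Egr1 and Egr2 by 1.71 ± 0.23 and 2.41 ± 0.33. For each of these 6 genes the RAD001 libraries lay above the DMSO libraries. The exception was Ccnd1, the gene for cyclin D1, at 131, 176 and 177 FPKM with DMSO and 109, 44.7 and 39.8 FPKM with RAD001 (log2 change -1.45 ± 0.43, adjusted p = 0.0246). Its call was lost in 4 of the 6 fits that left out 1 library, those without replicate 2 or 3 of either group. Among AP-1 and related factors 6 of 16 rose and 2 fell (median 0.17), with Fosl1 (1.59 ± 0.23), Fosl2 (1.22 ± 0.18), Junb (1.11 ± 0.20) and Maf (1.47 ± 0.25) higher and Jdp2, the gene for a repressor of AP-1, lower (-0.57 ± 0.09).

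The largest rises were genes for secreted inflammatory proteins and matrix proteases. The neutrophil chemoattractant gene Cxcl3 was at 19.7, 4.55 and 3.95 FPKM with DMSO and at 716, 1232 and 1102 FPKM with RAD001 (log2 change 6.90 ± 0.47, adjusted p = 6.51e-06). Serpinb2, which encodes an inhibitor of plasminogen activators, was at 31.9, 12.5 and 12.4 FPKM and at 1633, 1588 and 1432 FPKM (log2 change 6.42 ± 0.32, adjusted p = 9.25e-07). Ppbp, the gene for the chemokine CXCL7, was at 6.95, 3.97 and 2.55 FPKM and at 201, 182 and 167 FPKM (log2 change 5.14 ± 0.22, adjusted p = 3.82e-07). In these 3 genes the highest DMSO library was replicate 1, and it lay far below the lowest RAD001 library. Absence of overlap was itself a condition for the largest rises. The collagenase gene Mmp13 went from 38.6, 20.3 and 24.5 FPKM to 461, 847 and 772 FPKM, the macrophage elastase gene Mmp12 from 331, 198 and 395 FPKM to 3866, 3256 and 3017 FPKM, and the neutrophil collagenase gene Mmp8 from 196, 292 and 312 FPKM to 1525, 1961 and 1907 FPKM.

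**Figure D2:**
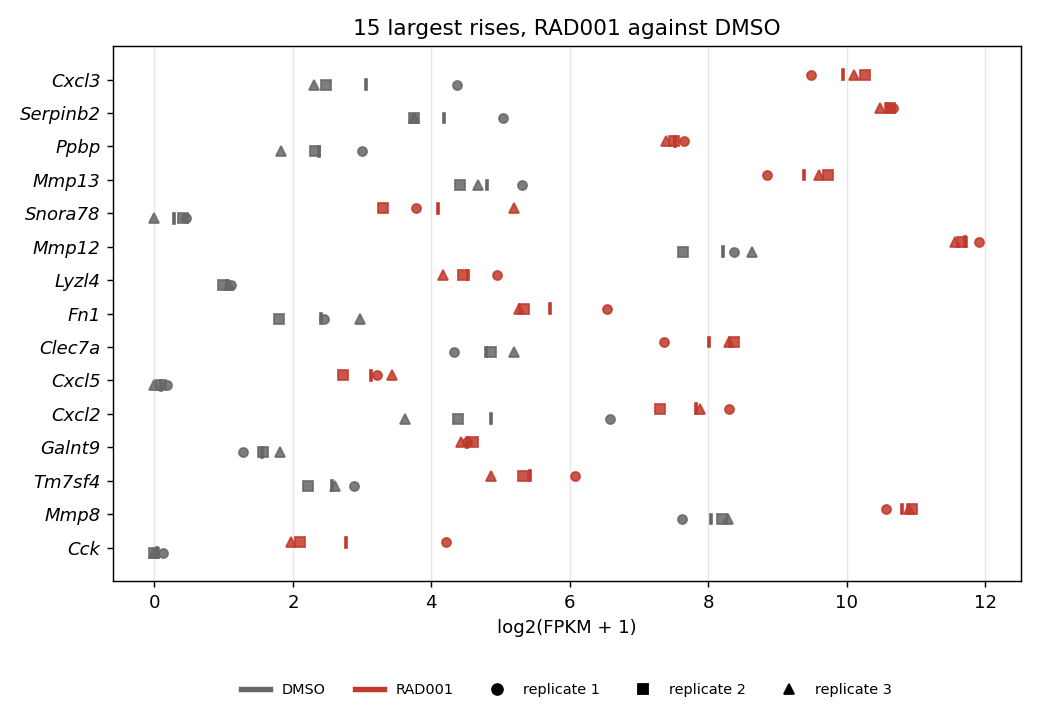
The 15 largest rises with RAD001 by log2 change, among genes called higher, without overlap between the groups and with at least 5 FPKM in the higher group. Each symbol is 1 library on a log2(FPKM + 1) axis, DMSO in grey and RAD001 in red, and the bars are group means. By this rule the RAD001 libraries lie to the right of the DMSO libraries in every row. Replicate 1 is the highest DMSO library for Cxcl3, Serpinb2 and Cxcl2.

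The bases before the transcription start of 5 of these genes are shown because they carry short motifs of inflammatory transcription factors, in capitals. The sequences are from RefSeq on GRCm38.p6 and read 5′ to 3′ on the strand of the gene, ending at the base before the annotated start. In Cxcl3 and Cxcl2 the capitals mark the NF-kB motif, GGGA and TTCC with 2 bases of any kind between them, which here matches on both strands with an offset of 1 base. In Mmp13, Mmp12 and Serpinb2 they mark the AP-1 motif TGANTCA, in which N is any base. The windows are chr5:90785981-90786100 (+ strand) for Cxcl3, chr5:90903779-90903898 (+) for Cxcl2, chr9:7272414-7272513 (+) for Mmp13, chr9:7347274-7347373 (+) for Mmp12 and chr1:107511293-107511422 (+) for Serpinb2.
Cxcl3: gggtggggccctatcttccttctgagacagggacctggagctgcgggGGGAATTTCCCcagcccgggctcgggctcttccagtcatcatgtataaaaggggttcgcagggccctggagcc
Cxcl2: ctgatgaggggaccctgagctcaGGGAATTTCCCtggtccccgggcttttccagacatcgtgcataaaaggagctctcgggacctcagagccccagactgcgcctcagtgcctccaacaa
Mmp13: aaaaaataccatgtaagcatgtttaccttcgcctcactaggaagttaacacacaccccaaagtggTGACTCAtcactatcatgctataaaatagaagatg
Mmp12: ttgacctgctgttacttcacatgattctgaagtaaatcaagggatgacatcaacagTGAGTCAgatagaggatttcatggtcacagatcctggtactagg
Serpinb2: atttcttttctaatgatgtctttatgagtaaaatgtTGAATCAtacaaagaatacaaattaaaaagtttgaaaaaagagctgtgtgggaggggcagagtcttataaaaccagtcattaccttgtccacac

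Both motifs were searched on both strands from 250 bases before to 50 bases after each start, in 10541 promoters of the 8311 tested genes that matched the table. AP-1 matches were in 15.6% of the 269 promoters of genes higher by at least 1 log2 unit, in 3.76% of the 372 promoters of genes lower by that much, in 5.31% of the promoters of all tested genes, and in 7.81% of all 32851 promoters in the table. NF-kB matches were in 3 of 8 promoters of the CXC chemokine list (37.5%), in 2.6% of the promoters of genes higher by at least 1 log2 unit, and in 1.53% of those of all tested genes. A match is a description of these letters and does not show that a factor bound there.

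Of the 10 CXC chemokine genes tested, 7 rose and 1, the interferon-induced Cxcl10, fell (median 1.17). The call for Cxcl10 was lost without RAD001 replicate 3, DMSO replicate 2 or DMSO replicate 3. Cxcl5 was at 0.139, 0.0635 and 0 FPKM with DMSO and at 8.25, 5.62 and 9.79 FPKM with RAD001. Cxcl2 was at 94.9, 19.9 and 11.3 FPKM and at 315, 157 and 234 FPKM, so that DMSO replicate 1 alone came near the RAD001 libraries (log2 change 2.97 ± 0.64, adjusted p = 0.00514). Cxcr2, which encodes the receptor for these chemokines, rose by 0.99 ± 0.20. The Cxcl1, Cxcl2 and Cxcl3 genes are close relatives, and how shared reads were assigned among them is not stated in the labels. The CC chemokine list went both ways, with 4 of 17 genes higher and 2 lower (median 0.44), and 8 higher and 4 lower without replicate 1 of every group. Ccl9 rose by 1.64 ± 0.15, Ccl6 by 1.76 ± 0.18 and the receptor gene Ccr1 by 1.22 ± 0.15. Ccl12, a monocyte chemoattractant gene, was the second largest fall of all named genes, from 156, 69.5 and 62.6 FPKM to 4.19, 3.07 and 3.62 FPKM (log2 change -4.27 ± 0.52, adjusted p = 0.000209). Its relative Ccl7 was at 974 ± 153 and 410 ± 195 FPKM and did not pass the test (adjusted p = 0.103 by limma), but it was called lower with the replicate block, a fit that takes same-numbered libraries as pairs (log2 change -1.34, adjusted p = 0.00852).

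In the list of cytokines and NF-kB feedback genes 15 of 29 rose and none fell (median 0.65), 7 rose without DMSO replicate 2 and 6 without DMSO replicate 3. Birc3, an NF-kB target that restrains cell death, went from 30.0, 26.4 and 26.9 FPKM to 54.1, 48.6 and 45.6 FPKM (log2 change 0.81 ± 0.12, adjusted p = 0.000752). Tgfb1 rose by 0.99 ± 0.16 and the NF-kB subunit gene Rela by 0.46 ± 0.08. Csf3, which encodes the granulocyte growth factor G-CSF, was at 0.197, 0.0449 and 0.042 FPKM with DMSO and at 5.08, 1.90 and 1.22 FPKM with RAD001. Tnf was at 78.5, 34.9 and 63.0 FPKM and at 147, 72.9 and 44.5 FPKM, with overlapping groups (adjusted p = 0.367 by limma). Of the matrix proteases, plasminogen system and matrix genes 13 of 21 rose and 1 fell (median 1.03). The gene that fell was Plau, which encodes the plasminogen activator that Serpinb2 inhibits and Plaur binds, from 161, 218 and 252 FPKM to 130, 86.8 and 57.1 FPKM (log2 change -1.25 ± 0.34, adjusted p = 0.0157). The call for Plau was lost without RAD001 replicate 3 (log2 change -0.95), DMSO replicate 2 (-1.21) or DMSO replicate 3 (-1.11). Fn1, the fibronectin gene, went from 4.45, 2.49 and 6.86 FPKM to 91.5, 39.6 and 37.4 FPKM, and Thbs1 and Adam8 rose by 1.12 ± 0.22 and 1.03 ± 0.12.

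The remaining largest rises were of mixed kinds. Clec7a, the gene for the fungal glucan receptor dectin-1, was at 19, 28.1 and 35.6 FPKM and at 163, 331 and 315 FPKM (log2 change 3.22 ± 0.36). Tm7sf4, which encodes the cell fusion protein DC-STAMP, rose by 2.85 ± 0.26, the lysozyme-like gene Lyzl4 by 3.48 ± 0.18 and the glycosyltransferase gene Galnt9 by 2.96 ± 0.13. Cck, the cholecystokinin gene, was at 0.084, 0 and 0 FPKM with DMSO and at 17.6, 3.30 and 2.94 FPKM with RAD001. The small nucleolar RNA Snora78 was at 0.367, 0.335 and 0 FPKM and at 12.7, 8.89 and 35.7 FPKM, and its short length makes FPKM values uneven.

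Replication and mitosis genes fell almost without exception. All 33 tested genes of S phase and DNA replication were lower (median -1.38) and the RAD001 libraries lay below the DMSO libraries for each of them. Of 30 mitosis genes 29 fell (median -1.80), and the checkpoint gene Bub3 was at 45.7 ± 1.94 and 43 ± 1.68 FPKM. Over all genes 16.1% were lower and 25.7% lay below without overlap. The origin licensing gene Cdc6 went from 3.68, 4.44 and 3.94 FPKM to 1.18, 0.518 and 0.454 FPKM (log2 change -1.57 ± 0.18, adjusted p = 0.000148). The replicative helicase genes Mcm5 and Mcm6 fell by 2.21 ± 0.29 and 2.01 ± 0.28. Ccnb1, the gene for cyclin B1, went from 19.3, 18.3 and 19.9 FPKM to 5.35, 1.71 and 1.87 FPKM (log2 change -2.46 ± 0.39, adjusted p = 0.000924), and the topoisomerase gene Top2a from 25.4, 28.2 and 29.6 FPKM to 8.57, 3.48 and 3.38 FPKM (log2 change -2.32 ± 0.38, adjusted p = 0.00111). RAD001 replicate 1 was the highest RAD001 library in each of these genes and still lay below DMSO.

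The 3 genes of the cell cycle list that rose encode inhibitors of cyclin-dependent kinases. Cdkn2b, which encodes p15, was at 8.26, 2.71 and 3.32 FPKM and at 47.9, 27.4 and 21.9 FPKM (log2 change 2.58 ± 0.35, adjusted p = 0.000375). Cdkn2a, the gene for p16 and p19ARF, rose by 0.93 ± 0.17, and Cdkn1a, the gene for p21, by 0.78 ± 0.15. In the whole list of D cyclins, kinases and inhibitors 3 of 17 rose and 6 fell (median 0.08), 17.6% and 35.3% beside 15.5% and 16.1% over all genes. Those that fell included Cdk2 (-0.56 ± 0.09) and Cdk4 (-0.43 ± 0.14). The count of falls was 2 or 3 without replicate 2 or 3 of either group, and Cdk4 lost its call in 5 of the 6 fits without 1 library. Of the p53 targets 3 of 19 rose and 2 fell (median 0.03), 15.8% and 10.5% beside 15.5% and 16.1% over all genes. Mdm2 was higher by 0.50 ± 0.09. Without replicate 1 of every group 7 of the 19 targets fell, in a fit that called 2515 of all 10300 genes lower. In the BCL2 family 2 of 16 rose and 2 fell (median 0.19), 12.5% each way, below the shares over all genes. Bid, which links death receptors to mitochondria, fell from 40.1, 53.2 and 55.0 FPKM to 18.5, 24.1 and 23.3 FPKM, and Bcl2l11, the gene for the death activator BIM, rose by 0.50 ± 0.10.

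The enzymes of serine and one-carbon metabolism showed some of the largest falls among metabolic genes. Of 14 tested 12 fell and 2 rose (median -1.16). Phgdh, the first enzyme of serine synthesis, went from 34.4, 39.3 and 37.8 FPKM to 6.31, 5.16 and 4.67 FPKM (log2 change -2.59 ± 0.14, adjusted p = 1.03e-06). Shmt2, which makes glycine and one-carbon units in mitochondria, went from 41.3, 44.6 and 43.5 FPKM to 10.8, 10.8 and 10.1 FPKM (log2 change -1.93 ± 0.12, adjusted p = 3.42e-06). Psat1, Psph, Mthfd2 and Cth fell by 1.55 ± 0.18, 1.26 ± 0.11, 1.63 ± 0.17 and 1.55 ± 0.12. Their groups were tight and far apart in every case. The 2 genes that rose were Mthfd2l (0.60 ± 0.10), which encodes a relative of Mthfd2, and Mat2a (0.35 ± 0.10), which makes S-adenosylmethionine. The call for Mat2a was lost with quantile normalization (0.26) and without RAD001 replicate 1 or 2 or DMSO replicate 1, and without replicate 1 of every group its change was 0.23.

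Transcripts of Atf4, the gene for a factor that switches on amino acid synthesis and import, were lower, and so were many genes of the ATF4 list. ATF4 protein was not measured. Atf4 itself went from 259, 213 and 205 FPKM to 131, 120 and 125 FPKM (log2 change -0.83 ± 0.14, adjusted p = 0.00125). Of 15 genes of the ATF4 list 9 fell (median -0.83), beside 16.1% lower over all genes. They included Asns (-1.79 ± 0.14), Pck2 (-1.83 ± 0.13), Gpt2 (-1.56 ± 0.20), Nupr1 (-1.20 ± 0.25) and Trib3 (-1.63 ± 0.30). Without replicate 1 of every group the changes of Nupr1 and Trib3 were smaller, -0.67 and -0.95. Only Cebpb rose, from 110, 104 and 110 FPKM to 289, 299 and 252 FPKM. Ddit3, the gene for CHOP, was at 168, 51.1 and 59.4 FPKM and at 32.6, 50.7 and 42.9 FPKM (adjusted p = 0.0721 by limma), and its DMSO mean is carried by replicate 1. Amino acid transporter genes fell in 6 and rose in 2 of 15 cases (median -0.10). Slc7a5, the leucine importer gene, went from 36.9, 37.0 and 35.5 FPKM to 16.4, 15.7 and 14.2 FPKM, and Slc1a4 fell by 1.34 ± 0.14. Slc7a11, the cystine importer gene, went the other way, from 5.05, 3.40 and 4.14 FPKM to 21.6, 40.9 and 40.5 FPKM (log2 change 2.72 ± 0.37, adjusted p = 0.000373).

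Aminoacyl-tRNA synthetases, which charge tRNAs with amino acids, fell in 18 of 20 cases (median -0.69), beside 16.1% lower over all genes. For 19 of the 20 all RAD001 libraries lay below the DMSO libraries, beside 25.7% over all genes. Yars went from 25.4, 25.9 and 26.2 FPKM to 10.8, 10.0 and 10.1 FPKM (log2 change -1.25 ± 0.13, adjusted p = 7.49e-05), and Gars from 82.1, 85.8 and 84.2 FPKM to 48.1, 47.1 and 47.0 FPKM (log2 change -0.81 ± 0.09, adjusted p = 9.49e-05). Nars fell by 1.01 ± 0.10, Aars by 0.93 ± 0.16, Iars by 0.82 ± 0.15 and Lars by 0.66 ± 0.07. The exceptions were Farsb, at 33.4 ± 1.63 and 24.1 ± 6.65 FPKM, and Qars, at 41.5 ± 0.463 and 36.5 ± 4.72 FPKM. Farsb was called lower with the replicate block (log2 change -0.49, adjusted p = 0.00905 by limma), and both were called lower without replicate 1 of every group.

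The starts of Aars, Gars and Nupr1 are shown because each holds the motif TGATGNAAT, a composite site that ATF4 can bind with C/EBP proteins, on the reverse strand and in capitals. For the cell cycle, Cdc6 and Mcm7 are shown with the E2F motif TTTCCCGC, also on the reverse strand. The windows are chr8:111033712-111033841 (+ strand) for Aars, chr6:55037901-55038000 (+) for Gars, chr7:126625471-126625600 (- strand) for Nupr1, chr11:98908001-98908150 (+) for Cdc6 and chr5:138171884-138172063 (-) for Mcm7, from RefSeq on GRCm38.p6 as above.
Aars: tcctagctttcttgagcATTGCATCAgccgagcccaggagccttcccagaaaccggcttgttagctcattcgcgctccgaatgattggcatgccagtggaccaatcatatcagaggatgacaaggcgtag
Gars: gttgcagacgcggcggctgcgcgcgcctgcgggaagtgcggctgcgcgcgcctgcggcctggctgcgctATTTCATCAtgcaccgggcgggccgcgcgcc
Nupr1: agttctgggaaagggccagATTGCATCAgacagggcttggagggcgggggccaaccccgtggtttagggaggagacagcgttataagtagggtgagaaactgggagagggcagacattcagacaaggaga
Cdc6: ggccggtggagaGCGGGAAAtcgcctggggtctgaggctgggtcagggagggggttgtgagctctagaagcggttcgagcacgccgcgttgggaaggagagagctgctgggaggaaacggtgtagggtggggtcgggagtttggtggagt
Mcm7: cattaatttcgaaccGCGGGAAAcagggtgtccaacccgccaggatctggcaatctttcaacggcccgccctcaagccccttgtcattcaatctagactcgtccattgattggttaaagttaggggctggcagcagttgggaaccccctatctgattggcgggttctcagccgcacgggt

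The composite motif was in 3 of 13 promoters of the synthetase genes (23.1%), those of Aars, Gars and Iars, in 0.379% of the promoters of all tested genes and in 0.965% of all promoters. It was in 1 of 17 promoters of the ATF4 list (5.88%), in none of 13 of the serine and one-carbon list and in none of 20 of the amino acid transporter list. The E2F motif was in 6 of 34 promoters of the replication list (17.6%), in none of 28 of the mitosis list, in 2.08% of the promoters of all tested genes and in 1.07% of all promoters. It was added to the search after values had been seen.

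Most tested genes of the sterol pathway were lower with RAD001. Of 23 genes of sterol synthesis and its regulator SREBP2 17 fell and none rose (median -0.96), beside 16.1% lower over all genes. Without RAD001 replicate 3 or DMSO replicate 3 the count was 11. Fdps, which makes farnesyl diphosphate, went from 144, 176 and 176 FPKM to 75.4, 44.9 and 43.9 FPKM (log2 change -1.61 ± 0.26, adjusted p = 0.000958). Dhcr7, the last enzyme of cholesterol synthesis, went from 11.3, 14.7 and 14.7 FPKM to 5.48, 3.57 and 3.24 FPKM (log2 change -1.53 ± 0.24, adjusted p = 0.000947). The groups did not overlap for either gene, although replicate 1 was the lowest DMSO and the highest RAD001 library. Earlier steps fell too, Pmvk by 0.96 ± 0.15, Mvd by 0.90 ± 0.16, Mvk by 1.04 ± 0.23 and Sqle by 1.20 ± 0.27, as did the sterol sensor gene Insig1 (-1.20 ± 0.21) and Acat2 (-2.03 ± 0.40). Hmgcs1 of this list is listed at 0 in all 6 libraries and was not tested. The sterol element TCACNCCAC was in none of the 19 promoters of this list and in 1.12% of those of all tested genes.

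Fatty acid synthesis genes fell in 7 and rose in 1 of 16 cases (median -0.42), with 3 or 4 falls when replicate 2 or 3 of either group was left out. Scd2, a stearoyl-CoA desaturase gene, went from 113, 121 and 133 FPKM to 44.5, 16.4 and 12.5 FPKM (log2 change -2.49 ± 0.50, adjusted p = 0.00333), and Scd1 from 3.25, 3.03 and 3.27 FPKM to 0.103, 0.0206 and 0.0207 FPKM. Genes for fatty acid binding proteins were among the largest falls of all. Fabp4 went from 159, 116 and 123 FPKM to 10.8, 3.31 and 3.22 FPKM (log2 change -4.47 ± 0.69, adjusted p = 0.000786), Fabp5 from 932, 969 and 1024 FPKM to 125, 126 and 111 FPKM (log2 change -3.01 ± 0.29, adjusted p = 5.26e-05), and Fabp3 fell by 2.61 ± 0.24. Pparg, whose product drives Fabp4 in fat cells and macrophages, fell by 0.94 ± 0.20. Of the list of cholesterol efflux and LXR targets 6 of 17 fell and 1 rose (median -0.31), and the LXR genes themselves split, with Nr1h3 lower by 1.17 ± 0.25 and Nr1h2 higher by 0.42 ± 0.06.

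**Figure D3:**
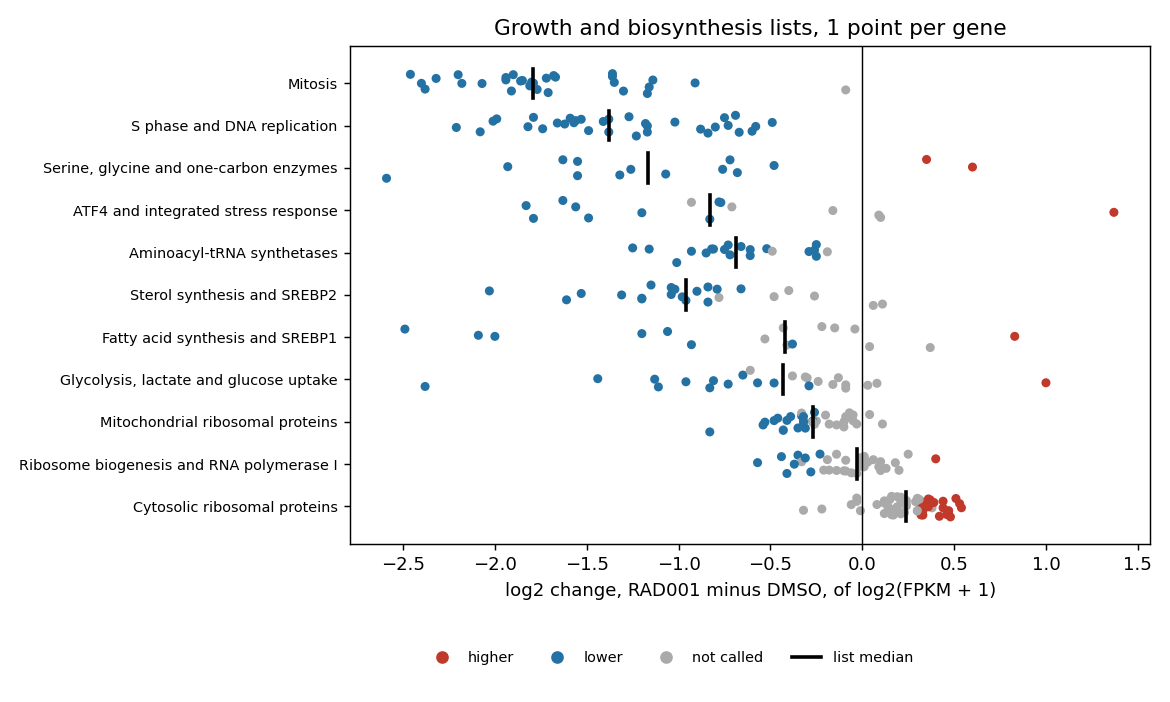
Log2 change (RAD001 minus DMSO, of log2(FPKM + 1)) of each tested gene in 11 lists of growth and biosynthesis, 1 point per gene, red where called higher, blue where called lower and grey where not called, with the list median as a black bar. The medians run from -1.80 for mitosis to 0.24 for cytosolic ribosomal proteins, whose median is -0.03 with quantile normalization.

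Glycolysis genes fell in 12 and rose in 1 of 24 cases (median -0.43). Pfkp, a phosphofructokinase gene, went from 51.2, 40.5 and 40.2 FPKM to 21.4, 23.2 and 21.5 FPKM (log2 change -0.96 ± 0.11, adjusted p = 0.000155), and Ldha, which makes lactate, from 793, 580 and 584 FPKM to 388, 272 and 249 FPKM (log2 change -1.11 ± 0.20, adjusted p = 0.00188). Aldoc fell by 2.38 ± 0.44 and Tpi1 by 1.13 ± 0.25. The exception was Slc2a1, the glucose importer gene, at 93.9, 40.5 and 42.0 FPKM with DMSO and 123, 108 and 99.7 FPKM with RAD001 (log2 change 1.00 ± 0.25, adjusted p = 0.0115). Its call was lost without DMSO replicate 2 (log2 change 0.80) or DMSO replicate 3 (0.82). Of 15 hypoxia targets 6 fell and none rose (median -0.45), with Bnip3 (-1.58 ± 0.25), Egln3 (-2.23 ± 0.53) and Vegfa (-0.88 ± 0.21) lower. The hypoxia list summed to 549 FPKM in DMSO replicate 1 and to 281 and 297 FPKM in replicates 2 and 3, against 233 to 290 FPKM with RAD001. The part of this in the result was not tested, and 4 genes of the list rose without replicate 1 of every group.

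Nucleotide synthesis went both ways, with 12 of 28 genes lower and 5 higher (median -0.29). The ribonucleotide reductase genes Rrm1 and Rrm2 fell by 1.95 ± 0.28 and 2.54 ± 0.44 and the pyrimidine gene Umps by 0.77 ± 0.13, while Atic, a purine synthesis gene, rose by 0.56 ± 0.10. Without replicate 2 or 3 of either group 7 members fell, and without 1 library 1 to 4 rose.

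The transcripts of the ribosome moved differently in its cytosolic and mitochondrial forms. Of 56 genes for cytosolic ribosomal proteins 21 rose and none fell (median 0.24), whereas of 34 genes for mitochondrial ribosomal proteins 16 fell and none rose (median -0.27). Rpl10 went from 1361, 1349 and 1388 FPKM to 1911, 1931 and 1812 FPKM (log2 change 0.46 ± 0.08, adjusted p = 0.0018), and Rps7 from 408, 425 and 411 FPKM to 692, 602 and 519 FPKM (0.53 ± 0.10). The rise of the cytosolic group depended on the scaling between libraries. With quantile normalization none of its 56 genes rose, 6 fell and the median was -0.03 (Rpl10 0.09 and Rps7 0.24, neither called), and 10 or 11 rose when any of the 6 libraries other than RAD001 replicate 3 was left out. Eef1a1, the elongation factor gene, rose from 3466, 3267 and 3321 FPKM to 5052, 5101 and 4811 FPKM, a change of 0.57 that was 0.31 and not called with quantile normalization, and Tpt1, whose messenger like those of ribosomal proteins begins with a pyrimidine tract, by 1.25 ± 0.12. Initiation factor genes Eif2s2 (-0.60 ± 0.08) and Eif3c (-0.41 ± 0.08) fell, and in the whole list of translation factors 3 of 35 rose and 3 fell (median 0.05), with 8 lower without replicate 1 of every group and 8 lower with quantile normalization. Of 37 ribosome biogenesis genes 8 fell and 1 rose (median -0.03), 3 or 4 fell without replicate 2 or 3 of either group, with Ncl, the nucleolin gene, at 47.3, 48.2 and 48.2 FPKM and 35, 30.7 and 30 FPKM, and Ubtf, a factor of RNA polymerase I, higher by 0.40 ± 0.07. Mrpl18 showed the smallest p of the mitochondrial group (-0.83 ± 0.12, adjusted p = 0.000536 by limma), and 7 to 10 of this group fell without replicate 2 or 3 of either group. Of 35 genes of oxidative phosphorylation and mitochondrial biogenesis 13 fell and 1 rose (median -0.20), 2 to 8 fell without replicate 2 or 3 of either group, and 23 fell with quantile normalization.

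mTORC1 represses lysosome and autophagy genes through the factors TFEB and TFE3, and the lysosomal counts depended on the model. Of 39 lysosomal genes 9 rose and 2 fell (median 0.00), beside 15.5% and 16.1% over all genes. Without replicate 1 of every group 14 rose and 8 fell, and without replicate 2 or 3 of either group 5 rose. With the replicate block 7 fell, and with quantile normalization 5 rose and 5 fell. Ctsl, a cathepsin gene, went from 713, 454 and 472 FPKM to 1532, 1911 and 1781 FPKM (log2 change 1.70 ± 0.18, adjusted p = 0.000104). The factor genes Mitf, Tfe3 and Tfeb rose by 0.93 ± 0.10, 0.50 ± 0.10 and 0.39 ± 0.09, and the sulfatase gene Sgsh fell by 0.55 ± 0.11. Ctsb, another cathepsin gene, was at 1350 ± 181 and 834 ± 185 FPKM (adjusted p = 0.0939 by limma), and it was called lower with the replicate block (log2 change -0.71, adjusted p = 0.00357). The E-box CACGTG, part of the sites that TFEB binds, was in 12 of 36 promoters of this list (33.3%) and in 10.5% of those of all tested genes. It was also in 4 of 13 promoters of the synthetase list (30.8%), in 0 of 13 of the serine and one-carbon list, and in 9.96% of those of genes called higher. Of 32 autophagy genes 12 rose and 1 fell (median 0.16), beside 15.5% and 16.1% over all genes, and 10 to 18 rose across all fits. Atg2a went from 6.82, 6.36 and 6.72 FPKM to 9.87, 12.2 and 11.5 FPKM, Gabarapl1 rose by 0.61 ± 0.14 and Map1lc3a by 0.75 ± 0.18. Of 24 targets of FOXO factors, which AKT restrains, 7 rose and 4 fell (median 0.27), with 11 higher without replicate 1 of every group. The PI3 kinase inhibitor gene Pik3ip1 fell by 1.17 ± 0.19.

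Antioxidant genes driven by the factor NRF2 were raised, with 12 of 19 higher and none lower (median 0.62). Leaving out replicate 2 or 3 of either group brought the count to 7. Nqo1, a quinone reductase gene, was at 7.47, 7.58 and 6.65 FPKM and at 30.0, 44.96 and 45.4 FPKM (log2 change 2.30 ± 0.23, adjusted p = 7.49e-05). The peroxiredoxin gene Prdx1 went from 1476, 906 and 962 FPKM to 3218, 3878 and 3661 FPKM (log2 change 1.72 ± 0.21, adjusted p = 0.000228), and Txnrd1 and Gclm rose by 1.01 ± 0.16 and 1.04 ± 0.23. The motif TGACNNNGC, a core of the antioxidant element that can overlap AP-1 matches and was added after values had been seen, was in 7 of 22 promoters of this list (31.8%) and in 14.7% of those of all tested genes. Chaperones of the endoplasmic reticulum (0 of 21 higher, 2 lower, median 0.00) and heat shock and proteasome genes (0 of 26 higher, 2 lower, median -0.06) had fewer calls than the 31.6% over all genes, and 5 of the former rose without replicate 1 of every group. This depended on the scaling, since with quantile normalization 7 and 8 members of these lists were lower.

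Core genes of the fusion program were low, and part of the program fell. Hoxa9, a core target of MLL fusions, was at 2.02 ± 0.0262 and 1.64 ± 0.121 FPKM (adjusted p = 0.264 by limma), and Meis1, its cofactor, at 2.64 ± 1.01 and 2.48 ± 0.805 FPKM (adjusted p = 0.896 by limma). Of 15 tested genes of this program 6 fell and 1 rose (median -0.38). Myb, the gene for a transcription factor that maintains these leukaemias, went from 7.39, 8.01 and 7.54 FPKM to 2.02, 1.65 and 1.71 FPKM (log2 change -1.63 ± 0.12, adjusted p = 1.25e-05). Hmgb3, Cbx5 and Mllt3 fell by 1.29 ± 0.16, 0.82 ± 0.14 and 0.57 ± 0.11. Mllt3 is the mouse AF9 gene, so its value could include reads of the fusion. Among stem and progenitor markers 2 of 12 rose and 3 fell (median -0.09), 16.7% and 25% beside 15.5% and 16.1% over all genes. Lmo2 (-0.75 ± 0.15) and Cd34 (-1.70 ± 0.40) were lower and Gata2 (2.23 ± 0.52) was higher. Gata2 in replicate 1 was the highest library of its group on both sides, at 26.0 beside 6.58 and 6.80 FPKM with DMSO and at 88.3 beside 47.0 and 37.6 FPKM with RAD001.

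Genes of the primary granules, which granulocyte progenitors make first, were among the largest falls. Elane, the neutrophil elastase gene, went from 44.2, 31.7 and 27.8 FPKM to 2.95, 0.258 and 0.26 FPKM (log2 change -4.24 ± 0.37, adjusted p = 3.17e-05). Mpo, the myeloperoxidase gene, went from 22.2, 23.8 and 23.2 FPKM to 4.65, 1.03 and 1.06 FPKM (log2 change -3.07 ± 0.32, adjusted p = 8.31e-05). The serine protease genes Prtn3 and Ctsg fell by 3.86 ± 0.34 and 3.31 ± 0.31, and the progenitor surface gene Ms4a3 by 2.70 ± 0.21. RAD001 replicate 1 kept more of each of these 5 transcripts than replicates 2 and 3. It lay below every DMSO library, as the rule for the largest falls required. In the whole list 8 of 15 fell and none rose (median -0.49).

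**Figure D4:**
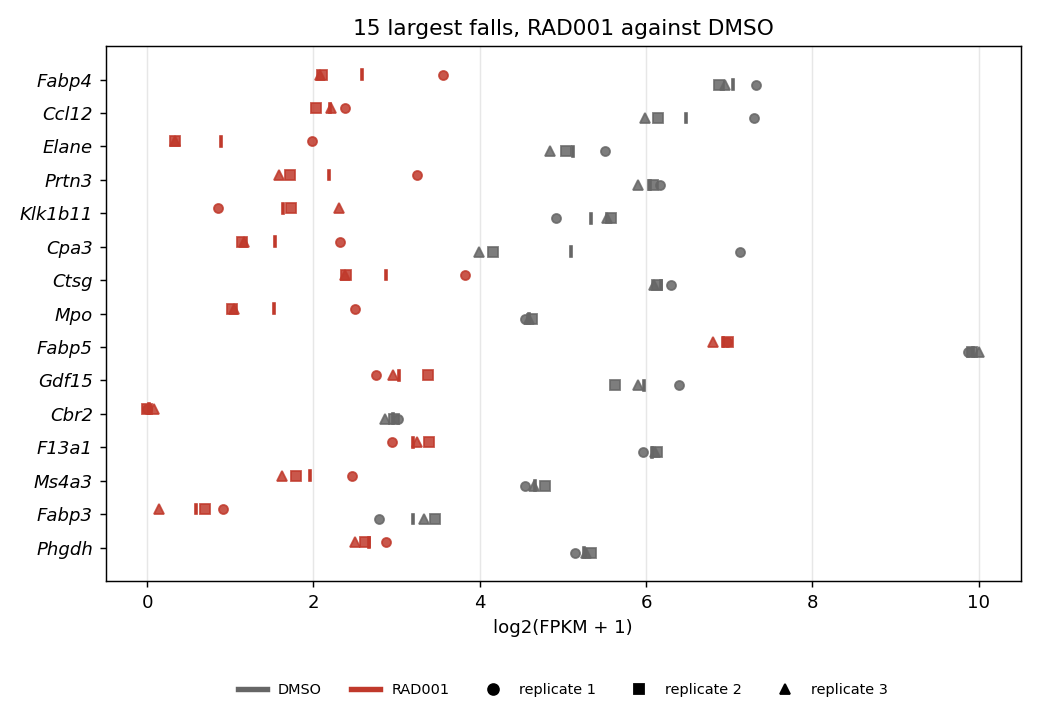
The 15 largest falls with RAD001, chosen and drawn as for the rises, with each symbol 1 library on a log2(FPKM + 1) axis, DMSO in grey and RAD001 in red, and bars at the group means. By the rule of choice the RAD001 libraries lie to the left of the DMSO libraries in every row. RAD001 replicate 1 is the highest RAD001 library for Elane, Prtn3, Ctsg and Mpo.

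Other large falls included Gdf15, a stress cytokine gene, from 83.4, 48.5 and 59.0 FPKM to 5.74, 9.42 and 6.75 FPKM, and F13a1, the coagulation factor XIII gene of monocytes, from 61.5, 68.9 and 68.2 FPKM to 6.68, 9.49 and 8.49 FPKM. The carbonyl reductase gene Cbr2 was at 7.10, 6.85 and 6.29 FPKM with DMSO and was listed at 0 in RAD001 replicates 1 and 2. Klk1b11 fell by 3.71 ± 0.44, but it belongs to a family of near-identical kallikrein genes and its value is uncertain.

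Among markers of later neutrophil maturation 8 of 25 rose and 1, Chi3l3, fell (median 0.50). With the replicate block 13 rose, and without replicate 1 of every group 18 rose and 3 fell. Besides Mmp8, the gelatinase genes Mmp9 (2.08 ± 0.41) and Mmp25 (0.99 ± 0.15) and the formyl peptide receptor genes Fpr1 (1.86 ± 0.46) and Fpr2 (1.39 ± 0.29) rose. Mmp9 was at 70.6, 44.0 and 45.9 FPKM and at 469, 157 and 154 FPKM. S100a8, the most abundant of the list named here, was at 7180 ± 98.2 and 9290 ± 2070 FPKM (adjusted p = 0.137 by limma). The secondary granule genes Ltf, at 239 ± 67.8 and 145 ± 96.7 FPKM, and Camp, at 643 ± 82.3 and 383 ± 125 FPKM, did not pass the test either. Without replicate 1 of every group both were called lower, with log2 changes of -0.47 for Ltf and -0.60 for Camp.

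Monocyte and macrophage markers split, with 7 of 27 higher and 7 lower (median 0.14, or -0.11 with quantile normalization). Itgam, the gene for the myeloid integrin CD11b, went from 335, 331 and 343 FPKM to 789, 832 and 813 FPKM (log2 change 1.27 ± 0.08, adjusted p = 5.5e-06). Cd14, a receptor for bacterial lipopolysaccharide, rose from 254, 123 and 134 FPKM to 921, 594 and 580 FPKM (log2 change 2.07 ± 0.27, adjusted p = 0.000317), and Csf1r, Msr1 and Fcgr3 rose by 0.85 ± 0.12, 1.05 ± 0.15 and 0.91 ± 0.10 (Fcgr3 0.57 with quantile normalization). The mannose receptor gene Mrc1 fell from 9.11, 11.4 and 11.6 FPKM to 0.986, 1.49 and 1.28 FPKM (log2 change -2.38 ± 0.18, adjusted p = 1.25e-05), and the complement genes C1qb and C1qc by 1.85 ± 0.40 and 1.92 ± 0.41. Without replicate 1 of every group 13 members rose. Of 14 C-type lectin receptor genes 6 rose and 1 fell (median 0.71), with Clec4n (1.72 ± 0.15) and Clec10a (2.55 ± 0.29) higher and Clec12a, a marker of myeloid leukaemia cells, lower (-1.23 ± 0.11). Without replicate 1 of every group 10 rose. Antigen presentation genes had few calls, 2 higher and 2 lower of 23 (median -0.19), or 5 and 9 without replicate 1 of every group, with the costimulatory genes Cd86 and Cd80 higher by 1.10 ± 0.22 and 0.52 ± 0.10. Osteoclast and fused macrophage genes rose in 4 and fell in 2 of 15 cases (median -0.03), with Cd9 higher by 1.99 ± 0.24.

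Receptors for the growth factor in the medium were raised. Csf2rb, the gene for the common beta chain of the GM-CSF receptor, went from 143, 122 and 125 FPKM to 693, 536 and 508 FPKM (log2 change 2.14 ± 0.14, adjusted p = 6.51e-06), and its close copy Csf2rb2 from 51.4, 34.4 and 34.9 FPKM to 241, 180 and 170 FPKM, with reads of the pair possibly shared. Csf2ra, the alpha chain gene, rose by 0.86 ± 0.10. The STAT5 feedback gene Cish went from 4.72, 4.86 and 4.67 FPKM to 21.9, 18.0 and 15.8 FPKM (log2 change 1.76 ± 0.24, adjusted p = 0.00042), and Pim1 and Socs2 rose by 1.10 ± 0.25 and 1.37 ± 0.29. Of this list 12 of 22 rose and 1 fell (median 0.46).

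The count of interferon response genes called higher changed with replicate 1. Of 31 genes 2 rose and 3 fell (median -0.17) over all libraries, and 14 rose and 7 fell without replicate 1 of every group. That fit called 2380 of all 10300 genes higher and 2515 lower. With the replicate block 6 interferon genes fell. Ifitm2 and Ifitm3 rose by 0.65 ± 0.11 and 0.54 ± 0.13, and with quantile normalization the change of Ifitm3 was 0.20 and not called. Ifit2 was at 25.6, 17.4 and 20.3 FPKM with DMSO and at 1.85, 10.6 and 9.25 FPKM with RAD001, and its log2 change of -1.64 ± 0.41 became -0.86 without replicate 1 of every group. Cxcl10 changed by -0.91 ± 0.28, and by -0.52 without RAD001 replicate 1.

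Markers of other blood cells differed widely in level. None of 13 T and NK cell markers and none of 10 erythroid markers reached the 1 FPKM mean, with summed levels of 0.95 to 7.09 FPKM (DMSO) and 1.38 to 5.33 FPKM (RAD001) for the former and 1.63 to 1.93 and 1.1 to 2.93 FPKM for the latter. The B cell list of 10 genes summed to 15.8 to 16.8 FPKM and to 2.44 to 6.12 FPKM. Of these, 4, among them Pax5 and Ebf1, were listed at 0 in all 6 libraries, and Cd79b and Blnk, which carry nearly the whole sum, both fell. The megakaryocyte list of 13 genes summed to 90.6 to 149 FPKM and to 425 to 540 FPKM, and 3 of 4 tested members rose (Ppbp, Selp and Pf4) while 9 of 13, among them the platelet receptor genes Itga2b, Gp1ba and Gp9, were under 1 FPKM in every library. The call for Pf4 was lost without DMSO replicate 2 (log2 change 1.24) or 3 (1.21). The mast cell and basophil list of 13 genes was uneven, at 195, 32.3 and 29.6 FPKM in DMSO and 104, 49.8 and 40.1 FPKM in RAD001. Its member Cpa3, a mast cell protease gene and one of the 15 largest falls, was at 139, 16.9 and 14.9 FPKM with DMSO and 3.97, 1.20 and 1.25 FPKM with RAD001, while the mast cell protease gene Mcpt4 was under 1 FPKM throughout. The part of these cell markers in the results was not tested. The stromal and endothelial list of 14 genes summed to 15.3 to 20.7 FPKM and to 10.4 to 11.9 FPKM, with Pecam1, which myeloid cells also express, the main contributor.

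RAD001 was also set against the other inhibitors in the same fit, to see which of these changes differed between them. The drugs are structurally unrelated, their doses were not matched for potency, and the comparisons with DMSO share the same 3 DMSO libraries. RAD001 and GDC0941 differed in 1796 genes (17.4%), and RAD001 and PD325901 in 5142 genes (49.9%). Several of the largest rises were absent or small with GDC0941, and their difference between the drugs passed the test. Cxcl3 was at 12.4 ± 4.59 FPKM with GDC0941 (log2 difference 6.28 ± 0.47, adjusted p = 1.73e-05 by limma), Serpinb2 at 17.4 ± 6.81 FPKM (6.46 ± 0.32, adjusted p = 1.06e-06 by limma) and Ppbp at 0.615 ± 0.0961 FPKM (6.83 ± 0.22, adjusted p = 3.65e-08 by limma). Clec10a, Csf2rb and Nqo1 were higher with RAD001 than with GDC0941 by 2.51 ± 0.29, 1.80 ± 0.14 and 2.88 ± 0.23. Mmp12 reached 3810 ± 468 FPKM with GDC0941 as well (log2 difference -0.17 ± 0.21, adjusted p = 0.6 by limma), and so did Clec7a at 402 ± 168 FPKM (-0.54 ± 0.36, adjusted p = 0.319 by limma).

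**Figure D5:**
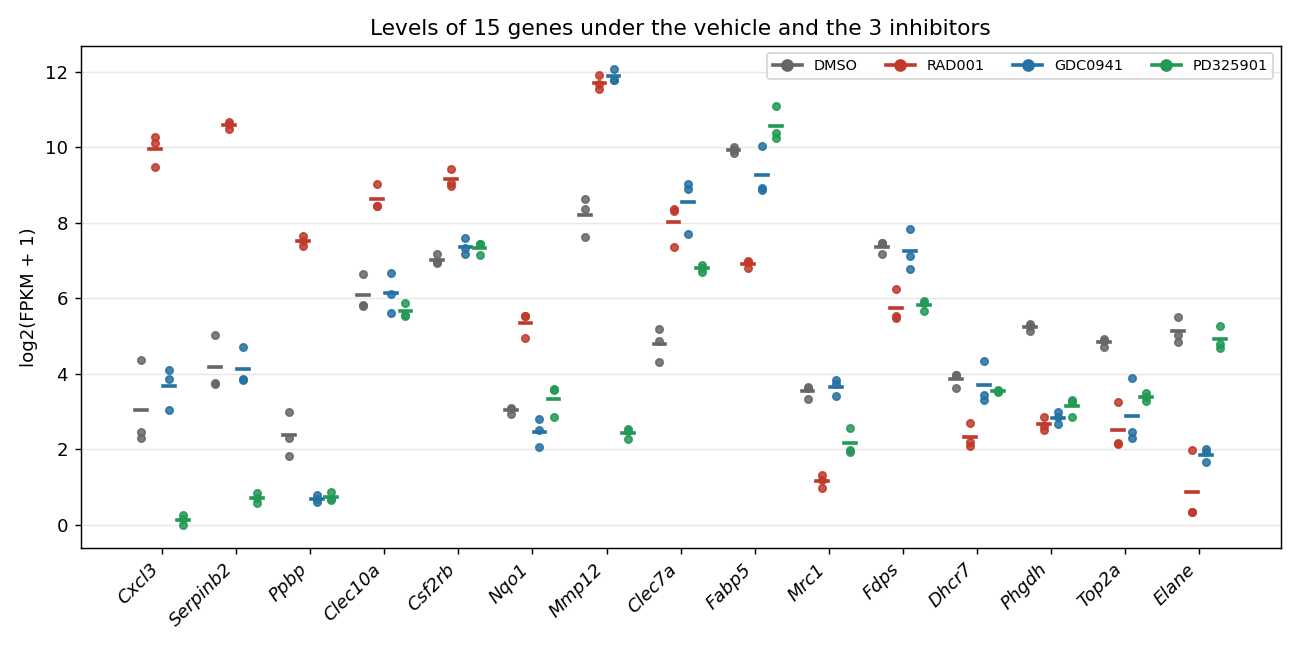
Levels of 15 genes with DMSO (grey), RAD001 (red), GDC0941 (blue) and PD325901 (green) on a log2(FPKM + 1) axis, with 1 point per library and bars at the group means. RAD001 stands alone at the top for Cxcl3, Serpinb2, Ppbp, Clec10a, Csf2rb and Nqo1, and Mmp12 is high with both RAD001 and GDC0941 and at 4.41 FPKM with PD325901.

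By list, RAD001 was higher than GDC0941 in 7 of 10 CXC chemokine genes (median log2 difference 2.44), 26 of 31 interferon genes (1.23), 14 of 25 neutrophil maturation genes (1.39), 13 of 29 cytokine genes (0.73) and 10 of 21 matrix protease genes (1.27), beside 9.47% over all genes. The interferon and neutrophil lists were themselves lower with GDC0941 than with DMSO, with median log2 changes of -1.62 and -1.11, and the interferon median with RAD001 against DMSO was -0.17. RAD001 was lower in 15 of 23 sterol genes (-0.91) and 7 of 17 LXR genes (-0.79), beside 7.97% over all genes. With PD325901 against DMSO the sterol median was -0.82, beside -0.96 with RAD001. RAD001 was higher than PD325901 in 4 and lower in 3 of the 23 sterol genes (median log2 difference -0.03). Fdps was at 158 ± 62.9 FPKM and Dhcr7 at 12.7 ± 5.79 FPKM with GDC0941, lower with RAD001 by 1.49 ± 0.26 and 1.37 ± 0.24 on the log2 scale. Mrc1 was at 11.7 ± 1.93 FPKM with GDC0941, lower with RAD001 by 2.50 ± 0.18. Replication and mitosis genes hardly separated these drugs, with 1 of 33 and 2 of 30 genes called. Top2a was at 7.45 ± 5.54 FPKM with GDC0941 (log2 difference -0.37 ± 0.38, adjusted p = 0.524 by limma), Phgdh at 6.18 ± 0.764 FPKM (-0.17 ± 0.14, adjusted p = 0.397 by limma) and Myb at 1.75 ± 0.44 FPKM (0.04 ± 0.12, adjusted p = 0.866 by limma). These p-values do not show that the drugs acted alike on those genes.

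Against PD325901, 25 of 28 ERK output genes were higher with RAD001 (median log2 difference 2.17), beside 29.7% over all genes. Cytosolic ribosomal proteins (53 of 56 genes, 0.63) and ribosome biogenesis genes (36 of 37 genes, 0.99) were higher with RAD001 as well. The ERK output, ribosomal protein and biogenesis lists were themselves lower with PD325901 than with DMSO, with median log2 changes of -1.64, -0.39 and -1.07. With RAD001 against DMSO their medians were 0.51, 0.24 and -0.03. Mmp13 was at 0.358 ± 0.124 FPKM with PD325901 and Mmp12 at 4.41 ± 0.501 FPKM, with log2 differences from RAD001 of 8.95 and 9.28. Elane, at 29.6 ± 6.77 FPKM with PD325901, was lower with RAD001 by 4.03 on the log2 scale (adjusted p = 7.44e-06 by limma), and Fabp5, at 1580 ± 542 FPKM, by 3.66 (adjusted p = 2.45e-06 by limma). The primary granule list, which holds Elane, had a median log2 change of -1.74 with GDC0941 against DMSO and of -0.49 with RAD001. RAD001 was higher than GDC0941 in 2 of its 15 genes and lower in 0 (median log2 difference -0.04).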

How the data were processed

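RNA-seq libraries of 12 samples were made from total RNA, 3 for each of 4 groups. Per the submitters' processing notes, TopHat2 2.0.4, Cuffdiff and the mm9 build lie behind the deposited FPKM table of the authors. No source used here names the annotation, the Cuffdiff version or how libraries were scaled, and FPKM hold no read counts. Values were analysed as log2(FPKM + 1), a scale that understates changes of low genes. In limma 3.58.1 (R 4.3.3), a single linear model with group means used the 12 libraries together, leaving 8 residual degrees of freedom, and eBayes (with a trend) gave two-sided tests. The p-values were adjusted by the Benjamini-Hochberg method over all 10300 genes, with a threshold of 0.05. SD are of FPKM within a group (n = 3), and SE are from the fit.

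The procedure was tested on simulated data with independent errors between libraries. Those data held no shared deviation of replicate 1, so the test does not cover it. The members and the 53 gene lists were chosen with earlier results of these data known, and lists are described by counts and medians without a test. Named genes are the 15 largest rises and falls (adjusted p under 0.05, no overlap, at least 5 FPKM in the higher group), up to 4 members of each list with the smallest adjusted p (in a list without calls, its 2 most abundant members), and Mtor, Rptor, Rictor, Mlst8, Fkbp1a, Rps6kb1, Eif4ebp1, Nras, Hoxa9 and Meis1. All other genes named in the text were chosen after their values were seen. Promoter sequences were matched by symbol to a RefSeq table (GRCm38.p6).

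Deviations of same-numbered RAD001 and DMSO libraries from their group means correlated at 0.381, 0.235 and 0.203, all above 0.1, so the replicate numbers were taken to pair the libraries in an alternative fit. Only 1 of 3 RAD001 libraries correlated best with its own number.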

Additional observations from a re-analysis of the deposited data

How the results depend on the processing

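Alternatives changed the pseudocount (0.1 or 5 FPKM), the filter (none or 5 FPKM) and the scaling (median ratio or quantile), or used the 6 RAD001 and DMSO libraries alone, a replicate block or library weights, or left out replicate 1 of every group or each RAD001 or DMSO library in turn. Of 286 named genes, 261 were called and 210 kept their call in every alternative that gives a value. Against 1597 genes higher and 1659 lower, the fit with the replicate block gave 1823 and 1928, and of the 261 named calls only that of Zbtb46 was lost with it (log2 change -0.29). Mtor, Hoxa9, Bub3 and S100a8, not called over all libraries, passed with library weights, and Ifit2, Cxcl10 and Slc2a1 did not pass with the 6 libraries alone. Library weights gave 3608 and 3348, the filter at 5 FPKM 1104 lower (212 by at least 1 log2 unit), and leaving out replicate 1 of every group 2515 lower. A pseudocount of 5 FPKM left 163 genes higher and 129 lower by at least 1 log2 unit. Without 1 library, 1100 to 1597 genes were higher and 1160 to 1708 lower, and 232 to 313 and 365 to 440 by at least 1 log2 unit. Quantile normalization changed the sign of the estimate in 7 called genes, counted whether or not they were called there.

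Among the named genes, the sign of some changes near 0 reversed, none of them called except Tyrobp. Tyrobp (0.48) became -0.07 with quantile normalization. Rps6kb1 (-0.02) became 0.03 with quantile normalization, 0.02 with library weights, 0.00 without replicate 1 of every group, and -0.04 to 0.01 without 1 library. Meis1 (-0.05) became 0.11 with quantile normalization and lay between -0.23 and 0.16 without 1 library. Rptor (0.04) became -0.05 with library weights, -0.10 without replicate 1 of every group and lay between -0.10 and 0.15 without 1 library. Eif4ebp1 (-0.05) became 0.05 with library weights, 0.01 without replicate 1 of every group, and lay between -0.12 and 0.05 without 1 library. The cause was not tested. Of 1632 list counts under alternatives, 1306 stayed within 1.5 times. Depth is unknown, so no counting error could be given, and low genes are the least certain.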
